A study of Caenorhabditis elegans with 23 samples.

Results

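The skr (SKP1-related) genes of Caenorhabditis elegans were followed through 23 poly(A)-tail sequencing libraries. The family list held 9 genes, skr-1, skr-2, skr-7, skr-8, skr-9, skr-10, skr-12, skr-13 and skr-14. It was chosen by measured values: the reads of skr-7, skr-8, skr-9 and skr-14 fell most in the gld-2 mutant of these same libraries, and skr-1 and skr-2 were added as the general copies. A gene was taken where the gene column of the deposited table held its name alone, which gave 7 of the 9 genes among 31753 rows, of which 19998 had any count and 3657 merged several genes. skr-13 was present only in a row merged with 1 other name, and skr-10 only in a row of 1100 merged names. Because the contrast of gld-2 with N2 chose the members, every gld-2 against N2 value below is a description without a test.

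SKR proteins are the worm relatives of SKP1, the adaptor of SCF ubiquitin ligases. In these complexes the cullin CUL-1 carries a RING protein that recruits the ubiquitin-conjugating enzyme, and SKP1 links the cullin to an F-box protein, which binds the protein to be ubiquitinated. Yeast and humans rely on 1 SKP1 gene, whereas C. elegans has an expanded family. In the worm, skr-1 and skr-2 are the broadly acting copies, needed in embryos and to restrain cell proliferation, while skr-7, skr-8, skr-9 and skr-10 form a group of close copies.

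PAT-seq tags the 3′ end of adenylated RNA and reads into the tail, giving for each gene a read count, a count of reads with a tail, and a mean tail length in nucleotides (nt). Sequencing run 1 held whole young adults, 3 libraries each, from wild-type N2, from gld-2(q497), which lacks normal function of a cytoplasmic poly(A) polymerase, and from YM19 cpb-3(bt17), mutant for a CPEB-family RNA-binding protein. Run 2 held gld-2(q497) young adults with a non-targeting control RNAi (pcb19) or RNAi named ccf-1, ccr-4, caf-1, parn-1 or panl-2, all names tied to deadenylation, and N2 embryos at the 1- and 2-cell stage, with 2 libraries each. All 12 RNAi libraries therefore carry the gld-2 mutation, their control included, and were fed E. coli HT115(DE3), whereas OP50 is named as food for the others. A protocol text names N2 for the RNAi worms, and the strain label was followed.

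Libraries held 2.2 to 15.95 M counts (M for 1e6), and 53.6 to 89.1% of them carried a tail. The gld-2 gene itself had 11.3 to 12.6 counts per 1e6 scaled counts (CPM) in N2, 2.83 to 4.65 in gld-2 and 2.16 to 6.38 in the 12 RNAi libraries. The cpb-3 gene had 51.6 to 57.3 CPM in N2 and 26.1 to 34.4 in cpb-3. The ccf-1 gene had 65.6 and 72 CPM under ccf-1 RNAi against 72.9 and 91.2 in the control, but panl-2 had 140 and 1280 CPM in the libraries labelled panl-2 RNAi against 14.6 and 16.6 in the control, the opposite of a loss. Levels of parn-1, caf-1 and ccr-4, which have no row under their own name alone, were not analysed here, so the knockdown was not checked in these 3 RNAi groups. Summed oocyte markers (13 of 13 genes) ran from 5430 to 5510 CPM in N2, 2010 to 2600 in gld-2, 6360 to 6840 in cpb-3, 2460 to 5030 in the RNAi libraries and 7860 to 9370 in embryos. Muscle markers (5 of 6 with a row) were at 1580 to 1700 CPM in N2 and, in the libraries labelled embryo, still at 535 to 589. Intestine markers (4 of 6 with a row) were at 3110 to 3150 CPM in N2, 2070 to 3340 in gld-2, 592 to 1110 under control RNAi, 582 to 944 under ccf-1 RNAi and 2150 to 5870 in embryos, with elt-2 at 0 reads in the embryo libraries. The part of these markers in the skr values was not tested.

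The 7 genes lie in 3 places in the ce10 build of the deposited table. skr-2 (chromosome I, 9469696 to 9470446, plus strand) precedes skr-1 (9471556 to 9472315, plus strand) by 1109 nt. skr-9 (chromosome IV, 17163537 to 17164121, plus strand), skr-8 (17165214 to 17165798, minus strand) and skr-12 (17167238 to 17167756, plus strand) follow each other at 1092 and 1439 nt. skr-14 (chromosome V, 4421055 to 4422063, minus strand) and skr-7 (4422413 to 4422997, plus strand) point away from each other across 349 nt. Among the listed members, those that fell in gld-2 thus share neighbourhoods on 2 chromosomes, while the general copies sit together on another. Positions of the other skr genes were not analysed here.

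The gene models differ as well. In the Ensembl annotation of WBcel235, used here for exon structure only, skr-1 and skr-2 have 3 exons, coding lengths of 531 and 525 nt, and annotated 3′ UTRs. skr-7, skr-8 and skr-9 each have 1 exon of exactly 585 coding nt, skr-12 has 519 nt and skr-14 has 507 nt, all without an intron or an annotated 3′ UTR. The deposited row of skr-14 spans 1009 nt and so reaches beyond this model. Rows of skr-7, skr-8, skr-9 and skr-12 match their coding lengths. The equal lengths of skr-7, skr-8 and skr-9 matter for the counts: the sources used here do not say how reads that match several copies were assigned, and identity between the copies was not computed, so the split of reads among these 3 rows is uncertain. Their sum was 114 ± 16.4 CPM (SD, n = 3) in N2, 1.44 ± 0.605 in gld-2, 154 ± 29.3 in cpb-3 and 57.1 ± 9.87 (n = 2) in embryos.

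The 4 genes that led the selection were nearly lost from gld-2 worms in run 1. skr-7 had 47.2, 61.4 and 58.2 CPM in the N2 libraries (408, 587 and 790 reads) and 1.07, 1.09 and 0.63 CPM in the gld-2 libraries (18, 16 and 4 reads). skr-8 had 34.4, 46.6 and 41.3 CPM in N2 and 0.298, 0.888 and 0.157 CPM in gld-2. Every N2 library lay far above every gld-2 library for both genes, with log2 differences of -5.78 ± 0.25 (SE) for skr-7 and -6.30 ± 0.35 for skr-8.

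skr-9 had 15.3, 21.5 and 16.6 CPM in N2, and in gld-2 only 3 reads in replicate 1 and none in the other two libraries. With depth taken into account, the pooled N2 reads stood 223 times above these 3 reads (95% exact interval 75.9 to 1080, counting error only). skr-14 had 22.7, 27.5 and 40.2 CPM in N2 and 0.357, 0.615 and 0.787 CPM in gld-2, a log2 difference of -5.76 ± 0.34. The row that merges skr-13 with another name showed the same direction, with 88, 86 and 162 reads in N2 and 2, 1 and 0 reads in gld-2. The row of 1100 names that contains skr-10 says nothing about that gene.

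skr-12, next to skr-8 on chromosome IV, kept more of its reads. It had 35.7, 36.2 and 35.9 CPM in N2 and 9.11, 13.7 and 13.7 CPM in gld-2, a log2 difference of -1.56 ± 0.22, and its groups did not overlap. The general copies were on the other side. skr-1 had 151, 151 and 141 CPM in N2 and 211, 169 and 171 CPM in gld-2, a log2 difference of 0.33 ± 0.17. skr-2 had 65.3, 72.6 and 69.9 CPM in N2 and 105, 100 and 87.9 CPM in gld-2, a log2 difference of 0.52 ± 0.21. For both, each gld-2 library was above each N2 library. By the edgeR call used for tested comparisons (Benjamini-Hochberg adjusted p under 0.05 over all genes), 5 of the 7 members fell and none rose. That count was fixed by the choice of members, and stood beside 28.5% of 10357 genes called in either direction (1548 lower and 1400 higher).

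The make-up of the family's reads shifted accordingly. Summed, skr-7, skr-8, skr-9 and skr-14 gave 144 ± 21.3 CPM (SD, n = 3) in N2 and 2.03 ± 0.522 CPM in gld-2, or 36.2% and 0.689% of the reads of the 7 rows. skr-1 and skr-2 together gave 217 ± 6.19 CPM in N2 and 281 ± 30.3 CPM in gld-2, or 54.7% and 95.1%. The 7 rows summed to 397 ± 23.3 CPM in N2 and 296 ± 27.7 CPM in gld-2. In whole worms, fewer cells that hold a transcript and less of it per cell cannot be told apart. The summed oocyte markers fell alongside, and the early zygotic markers (8 of 8 with a row) were at 26.2 to 30.2 CPM in N2 and 2.52 to 2.74 CPM in gld-2, with pes-10, end-1 and med-1 at 0 reads. Sperm markers (6 of 7 with a row) were at 5.08 to 7.33 and 312 to 331 CPM. The part of these in the skr values was not tested.

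**Figure D1:**
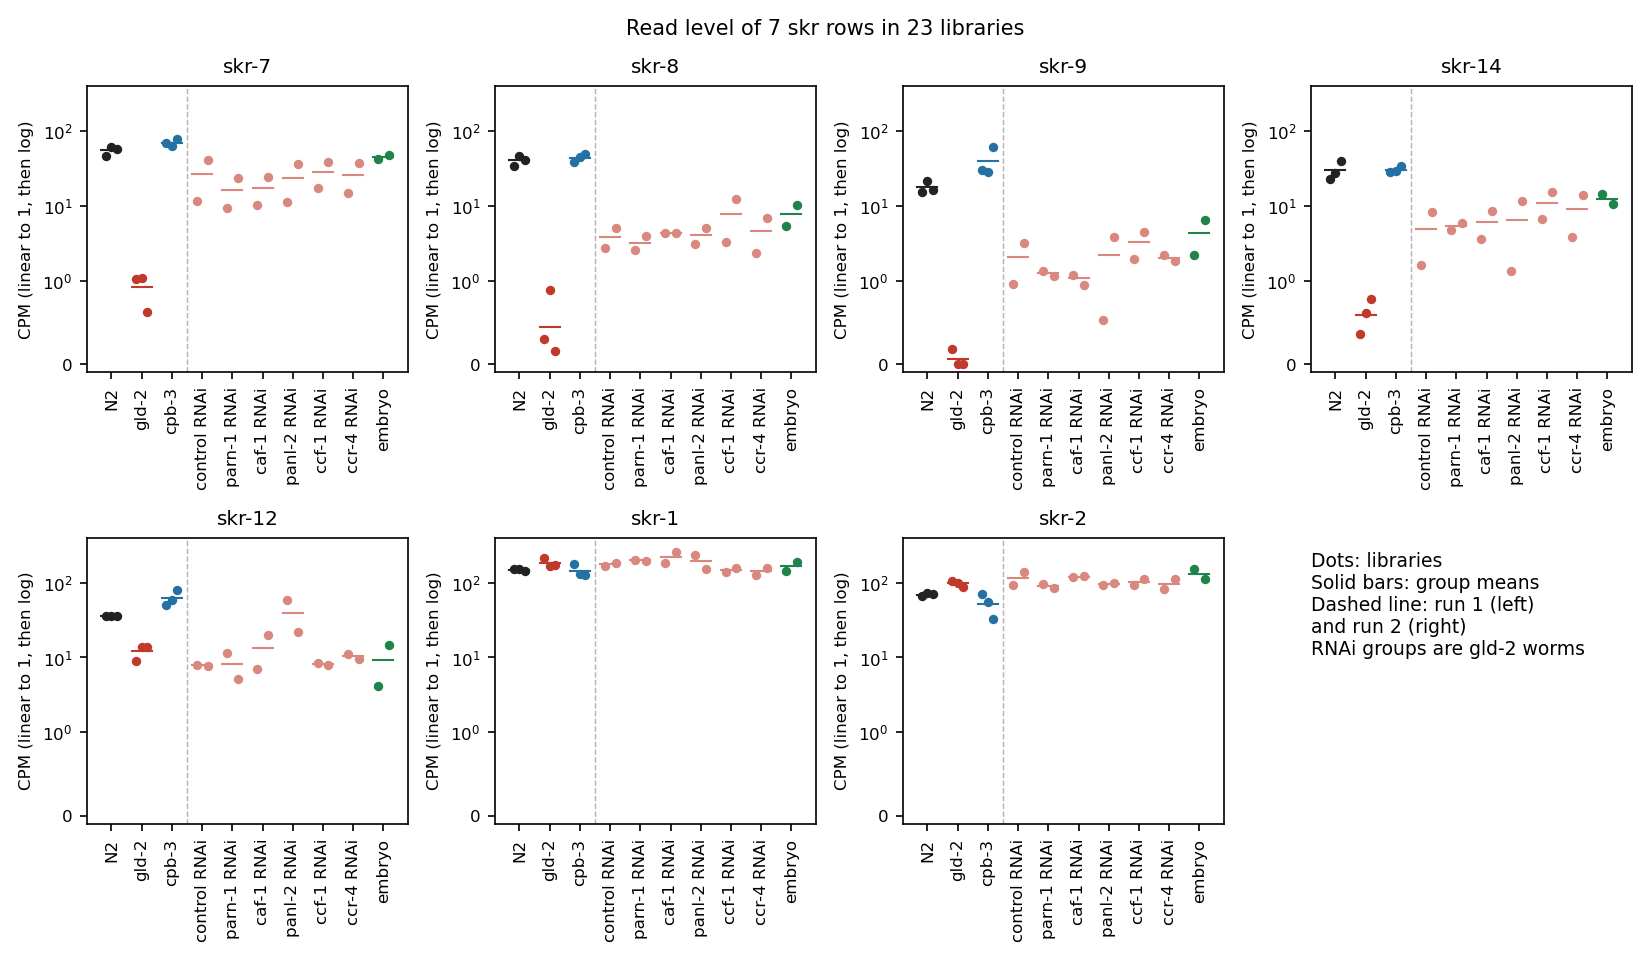
Read level in CPM (axis linear up to 1 and logarithmic above) of the 7 skr rows in each of the 23 libraries, by group, with bars at group means. skr-7, skr-8, skr-9 and skr-14 are near 0 in the 3 gld-2 libraries of run 1 and clearly above that in most gld-2 RNAi libraries of run 2, while skr-1 and skr-2 are at 32.4 CPM or more in every library.

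The other skr genes were read in the same fit. Since skr-7, skr-8, skr-9 and skr-14 were picked as falling most in this contrast, what was left for the others is partly set by that choice. Their values are a description too. Of 12 listed, 10 had a row of their own and 9 were fitted. By the same edgeR call 3 of the 9 fell, beside 28.5% of all genes called in either direction (1548 lower and 1400 higher). On the log2 scale skr-21 fell by 3.52 ± 0.30, skr-15 by 2.92 ± 0.33 and skr-16 by 2.06 ± 0.28. In CPM, skr-21 went from 29.1 ± 7.2 (SD, n = 3) in N2 to 2.54 ± 0.614 in gld-2, skr-15 from 13 ± 1.57 to 1.68 ± 0.557, and skr-16 from 7.3 ± 1.1 to 1.74 ± 0.325. All 3 have 1 exon, as do 2 that were not called, skr-19 at -0.30 and skr-20 at 0.02. Of the 4 fitted genes of this list with introns, skr-4, skr-5, skr-17 and skr-18, 0 were called, with log2 differences from -0.32 to 0.48. These are counts over 9 genes and were not tested, and the place of the members in such a split was fixed by their selection.

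**Figure D2:**
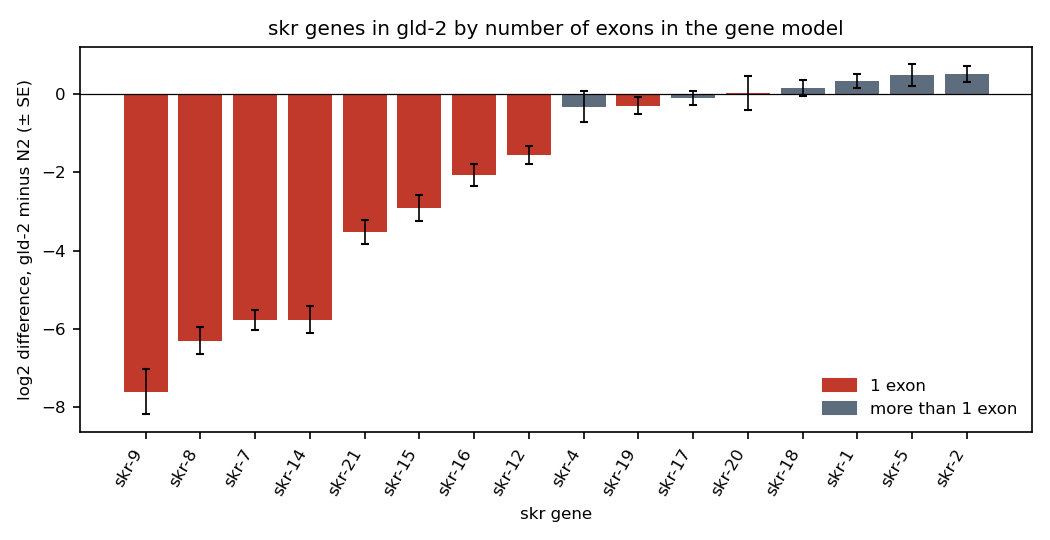
Log2 difference in read level, gld-2 minus N2 (bars, with SE), for the 16 skr genes with a fitted value, coloured by whether the gene model has 1 exon or more. The 8 genes below -1.5 all have 1 exon; skr-9 rests on 3 reads in gld-2, so the length of its bar depends on the fit.

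Levels in gld-2 worms differed between the runs. In the 12 RNAi libraries of run 2, skr-7 ran from 9.35 to 41.5 CPM with a median of 20.6, so that each was above each of the 3 gld-2 libraries of run 1. The same held for skr-8 (2.35 to 12.4 CPM, median 4.14), skr-9 (0.525 to 4.55, median 1.59) and skr-14 (1.35 to 15.5, median 6.35). For all 4 genes the 12 libraries also lay under every N2 library. The general copies stayed in 1 range, with skr-1 at 127 to 255 CPM and skr-2 at 82 to 137 CPM. Early zygotic markers, at 2.52 to 2.74 CPM in run 1 gld-2, were at 3.74 to 18.7 CPM in these libraries, and sperm markers at 21.2 to 98.8 CPM. Run, food and RNAi treatment differ together between these gld-2 libraries and cannot be told apart, and the difference was not tested. The strain of the RNAi worms rests on the label, as given above.

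Ordered by group mean, skr-7, skr-8, skr-9 and skr-14 were highest in cpb-3, then N2, then embryos, then the RNAi groups, and lowest in run 1 gld-2. For skr-8 and skr-14, cpb-3 and N2 overlapped, as did embryos and the RNAi group next below them, whereas N2 and embryos did not overlap. For skr-7, N2 and embryos overlapped at 47.2 to 61.4 and 42.4 to 47.4 CPM. skr-1 gave no separated order: each of its 10 groups overlapped the next, with means from 143 CPM under ccr-4 RNAi to 220 CPM under caf-1 RNAi. skr-2 had its means for cpb-3 and N2, 52.3 and 69.3 CPM, below all other groups, the next being 90.5 CPM under parn-1 RNAi.

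No member was called lower in cpb-3 than in N2. The cpb-3 libraries took no part in choosing the members, although the N2 libraries they are compared with did. Of 7 members, 2 rose and none fell, beside 8.78% of 10357 genes called (734 higher and 175 lower). skr-9 had 30.1, 28.6 and 60.6 CPM in cpb-3, all above N2, a log2 rise of 1.16 ± 0.31 (edgeR quasi-likelihood test, adjusted p = 0.032). skr-12 had 49.8, 59 and 80.1 CPM, also all above N2, a rise of 0.83 ± 0.22 (edgeR, adjusted p = 0.0268). The highest value of each came from cpb-3 replicate 3, the shallowest library of run 1 at 4.18 M counts. Its TMM scaling factor of 0.577 was the lowest of the series, the next being 0.7606 in panl-2 RNAi replicate 2. Before scaling, skr-12 had 193 reads in it and 825 in cpb-3 replicate 2, which held 15.6 M counts. The part of this scaling in the rises was not tested.

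Both calls were narrow. Without cpb-3 replicate 3 the estimates were 0.72 (edgeR, adjusted p = 0.0697) for skr-9 and 0.60 (0.0556) for skr-12, and leaving out any 1 of the 3 N2 libraries also ended both calls, with adjusted p from 0.0583 to 0.124 for skr-9 and 0.0753 to 0.101 for skr-12. With tailed reads alone, an alternative chosen after seeing the data, skr-9 rose by 0.74 ± 0.33 and was not called (edgeR, adjusted p = 0.229). With assumed copies summed into 1 row each, skr-12 with skr-14 among them, none was called. skr-12 and skr-14 lie on different chromosomes, and their pooled tailed shares in N2 were 99.4 and 85%. Identity was not computed, so this sum does not show whether they share reads. The other members were not called: skr-7 at 0.36 ± 0.18, skr-8 at 0.14 ± 0.24, skr-14 at 0.04 ± 0.23, skr-1 at 0.00 ± 0.17 and skr-2 at -0.36 ± 0.21. skr-7 had 68.8, 62.9 and 78.4 CPM and skr-8 had 38.8, 45.3 and 49 CPM, and only the latter overlapped N2. Early zygotic markers were at 35.8 to 45.6 CPM and sperm markers at 46.8 to 68.9 CPM in cpb-3; their part was not tested.

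Embryos at the 1- and 2-cell stage held less of the selected genes than N2 adults, except skr-7. Of 7 members, 4 fell and 1 rose, beside 34.4% of 9343 genes called. skr-8 had 5.43 and 10.2 CPM in embryos (22 and 43 reads), under all N2 libraries, a fall of 2.38 ± 0.29 on the log2 scale (edgeR, adjusted p = 0.000634). skr-9 had 2.22 and 6.43 CPM and fell by 2.03 ± 0.41 (edgeR, adjusted p = 0.00613). skr-12 had 4.19 and 14.5 CPM and fell by 1.93 ± 0.39 (edgeR, adjusted p = 0.00558). For each of these the groups were apart.

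skr-14 had 14.6 and 10.5 CPM in embryos and fell by 1.27 ± 0.30 (edgeR, adjusted p = 0.0124), but not without N2 replicate 3 (-0.99, adjusted p = 0.0629). skr-7 had 42.4 and 47.4 CPM, an uncalled difference of -0.31 ± 0.18 (edgeR, adjusted p = 0.2). Of its 371 embryo reads only 41% carried a tail, beside 41.7% in the gld-2 RNAi libraries of run 2 and 88.1% in N2. On tailed reads alone, an alternative chosen after seeing the data, skr-7 fell by 1.11 ± 0.22 (edgeR, adjusted p = 0.00877). skr-2 was the member that rose: 150 and 113 CPM in embryos against 65.3 to 72.6 in N2, or 0.92 ± 0.16 (edgeR, adjusted p = 0.00298). skr-1, at 144 and 188 CPM, was not called (0.17 ± 0.15). Embryo and N2 libraries came from different runs, so stage and run cannot be told apart, and the N2 libraries also served in choosing the members. Early zygotic markers were at 24.9 to 41.4 CPM in embryos, with tbx-8, med-1 and med-2 at 0 reads, against 26.2 to 30.2 in N2.

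Within run 2, embryos were set against gld-2 adults on control RNAi, where stage, strain, food and RNAi treatment differ together. No member was called by edgeR, at an unadjusted p under 0.05 or by DESeq2, beside 22% of 9957 genes called. That background of 2188 genes fell to 896 without control RNAi replicate 1, 994 without control RNAi replicate 2 and 1168 without embryo replicate 2. The control libraries scattered widely: skr-7 had 11.5 and 41.5 CPM and skr-14 had 1.65 and 8.2 CPM. The estimates ran from -0.05 ± 0.26 for skr-1 to 1.58 ± 1.04 for skr-14. Control replicate 2, with the higher value of each pair, was the shallowest library of the series at 2.2 M counts.

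**Figure D3:**
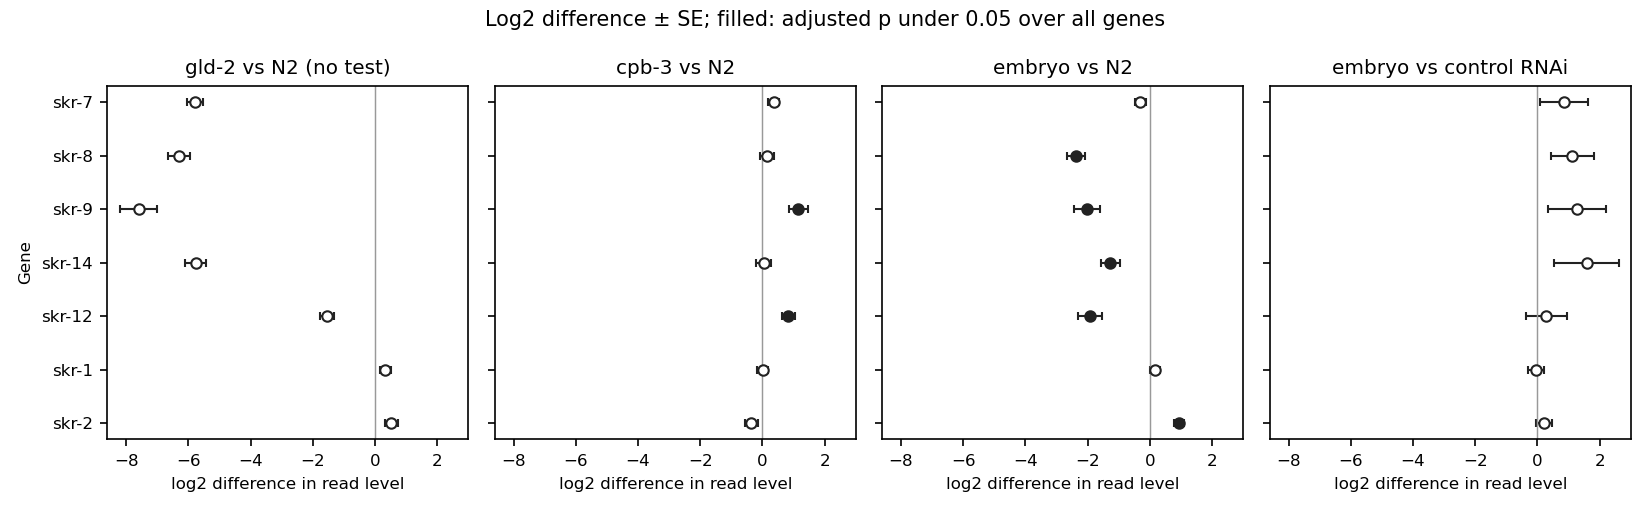
Log2 difference in read level with SE for the 7 members in 4 comparisons; filled points had an adjusted p under 0.05 over all genes, and gld-2 against N2, which chose the members, carries no test. Open points on the left side of the first panel run to -7.60 for skr-9, while in cpb-3 the filled points are skr-9 and skr-12 at 1.16 and 0.83.

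RNAi in the gld-2 background moved no member past the threshold. All 5 RNAi groups, and the embryos above, were set against the same 2 control libraries. In each of the 5 RNAi groups against control RNAi, 0 of 7 members were called for read level. Over all 9908 genes tested, 0% were called for parn-1, 0% for caf-1, 0% for panl-2, 0% for ccf-1 and 0% for ccr-4. At an unadjusted p under 0.05 edgeR gave 124, 228, 1582, 657 and 258 genes, and DESeq2 called 1, 0, 170, 8 and 1. Among the members only skr-12 in the libraries labelled panl-2 RNAi reached an unadjusted p under 0.05. It had 57.7 and 21.8 CPM there against 7.96 and 7.75 in the control, a log2 difference of 2.38 ± 0.57 (edgeR, adjusted p = 0.157). DESeq2 called it (2.34, adjusted p = 0.00896), and so did edgeR without panl-2 RNAi replicate 2 (2.86, adjusted p = 0.0304). Replicate 1 of that group, with the 57.7 CPM, stood apart from the other RNAi libraries in its tailed share of 85.1%, against 53.6 to 72.2%. Under ccf-1 RNAi, skr-8 was at 3.26 and 12.4 CPM against 2.74 and 5.01 in the control. skr-14 was at 6.75 and 15.5 CPM against 1.65 and 8.2. In each pair the library numbered 2 was the higher. The estimates of 1.14 ± 0.68 and 1.42 ± 1.08 were not called (edgeR, adjusted p = 0.838 and 0.897).

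The share of reads that carry a tail set the rows apart from each other. In N2, skr-12 had tails on 98.1, 99.7 and 100% of its reads, and skr-9 on 65.2, 77.6 and 79.1%. Whole N2 libraries were at 82.9 to 89.1%. skr-9 lay below its own library's share in 20 of 20 libraries with at least 5 of its reads, by a median of 29 percentage points, and skr-14 did so in 21 of 23 by 18.8 points. skr-7 was below in 18 of 22. skr-12 was above in 22 of 23, by a median of 23.4 points, and skr-1 in 21 of 23. A read without a tail in these files may still come from a tailed RNA whose tail was not reached; the sources used here do not state the criterion.

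In cpb-3 the tailed share was lower for all 7 rows. skr-8 had 84.9, 70 and 45.8% against 87.9, 94.6 and 92% in N2, a difference of -24.6 points. skr-9 had 50.5, 53.2 and 47.9%, a difference of -23.4 points, and skr-7 had 78.3, 71.1 and 57.1%, a difference of -18.7. skr-14 differed by -16.1 points, skr-2 by -7.77, skr-1 by -4.33 and skr-12 by -1.63. Each of the 7 had every cpb-3 library below every N2 library (exact two-sided permutation test, p = 0.1 for each and after adjustment over the 7, the smallest that 3 against 3 allows). Of 5102 genes with at least 20 counts in each of the 6 libraries, 42.3% did the same, with a median difference of -4.97 points, and whole cpb-3 libraries were at 71.3 to 79.9%. Library share moved with this result, and its part in it was not tested.

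**Figure D4:**
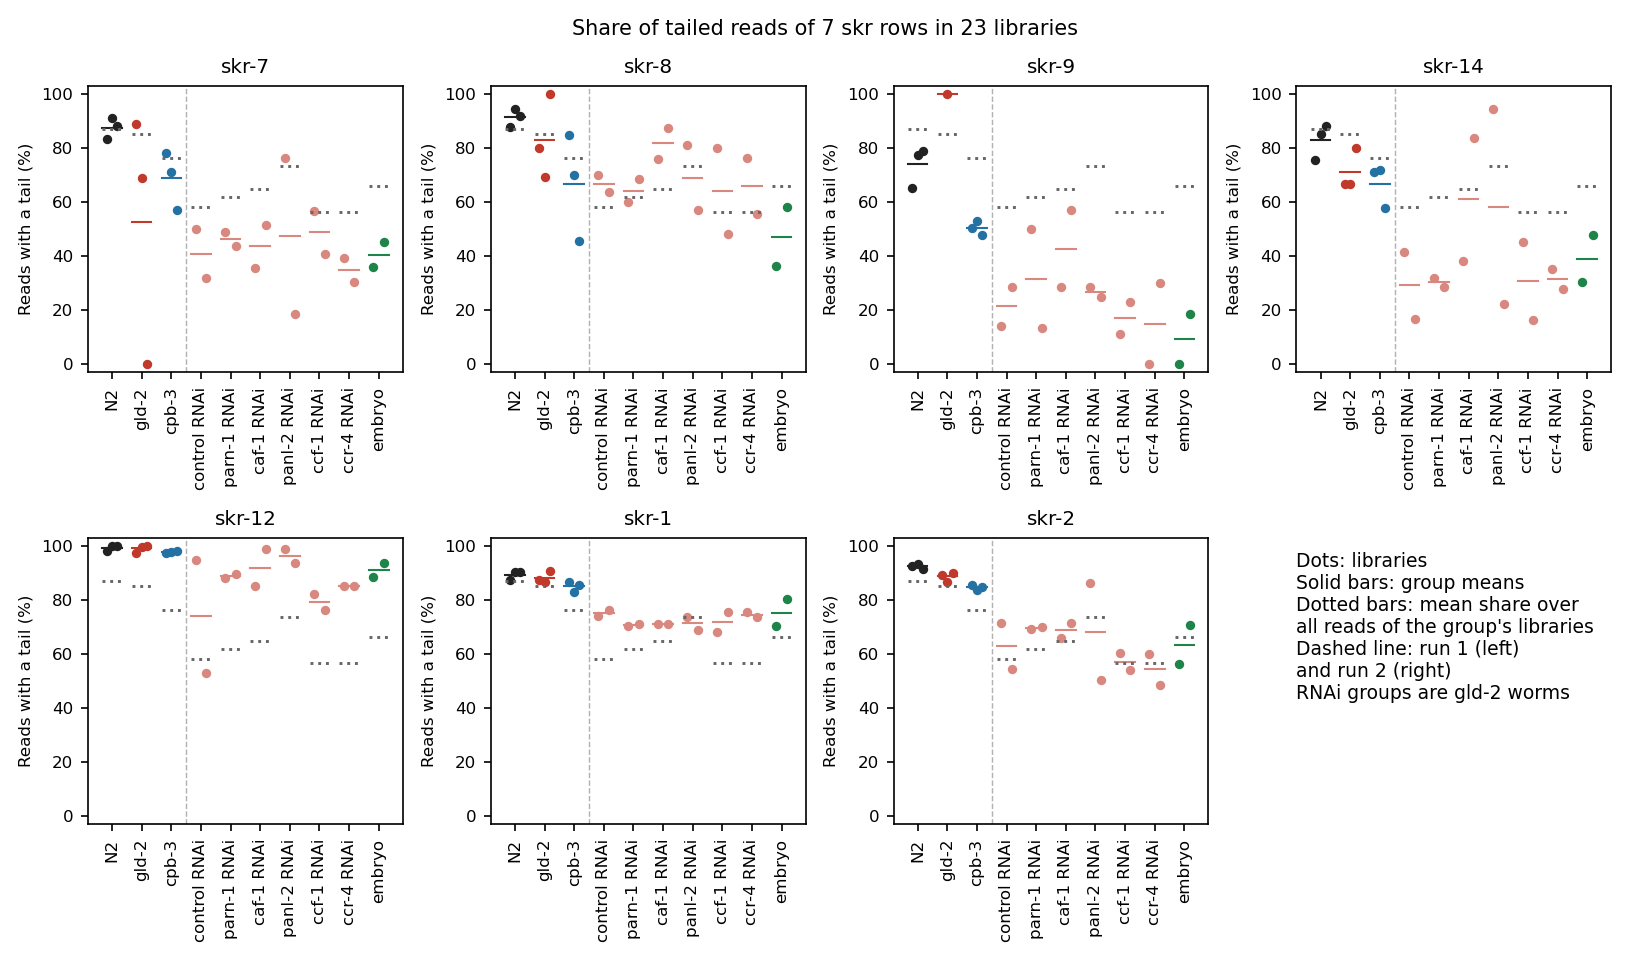
Share of reads with a tail, in percent, for the 7 skr rows in each library, with solid bars at group means and dotted bars at the mean share of whole libraries. skr-12 stays above the dotted bars and skr-9 below them in nearly every group; the 100% point of skr-9 in gld-2 rests on 3 reads.

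In run 2, pooled reads of skr-7, skr-9 and skr-14 were more often untailed than tailed. Pooled over the 12 RNAi libraries, 848 of 2034 skr-7 reads had a tail, or 41.7% (95% exact interval 39.5 to 43.9%). The shares were 22.8% (16.6 to 30.1%) of 162 reads for skr-9 and 34.2% (30.5 to 38%) of 640 reads for skr-14. In embryos they were 41% (35.9 to 46.2%) for skr-7, 13.9% (4.67 to 29.5%) for skr-9 and 37.9% (28.5 to 48%) for skr-14. Pooled, skr-12 had tails on 93.3% (91.9 to 94.5%) of 1566 reads in the RNAi libraries and on 92.3% (84 to 97.1%) in embryos. Of those 1566 reads, 770 came from replicate 1 of the libraries labelled panl-2 RNAi, at 98.6%. Single RNAi libraries ran from 52.9 to 98.6% for skr-12, with a median of 86.5%. Whole libraries were at 53.6 to 85.1% and 62.3 to 69.8%. Pooling hides the spread between libraries, which over the RNAi libraries ran from 18.5 to 76.2% for skr-7, from 0 to 57.1% for skr-9 and from 16.5 to 94.4% for skr-14.

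Tail lengths were read only where at least 5 tailed reads supported them. In N2, mean tails were 27.6 to 31.2 nt for skr-9, 32.8 to 34.5 for skr-2, 34.5 to 35.2 for skr-8, 38.1 to 40.7 for skr-7, 40 to 42.5 for skr-1, 33.7 to 45.3 for skr-14 and 49.2 to 50 for skr-12. skr-12 thus had the longest tails and skr-9 the shortest in all 3 N2 libraries. The neighbours skr-1 and skr-2 differed throughout, with skr-1 tails longer in 23 of 23 libraries, by 5.2 to 14.6 nt with a median of 8.8 nt.

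In each gld-2 library, skr-1 kept 985 to 3084 tailed reads, skr-2 502 to 1578 and skr-12 87 to 199, while the other 4 rows had at most 16. skr-1 tails were 32.5, 34.5 and 37.6 nt against 42.5, 40 and 41.3 in N2, a difference of -6.42 ± 1.72 nt, and skr-2 tails were 27.3, 28.3 and 32.2 nt, a difference of -4.68 ± 1.63 nt. Both kept their groups apart. skr-12 tails were 50.4, 43.3 and 44.5 nt, overlapping N2. skr-7 had 25.1 nt on 16 tailed reads and 32 nt on 11, with none in replicate 3, and its difference of -10.72 ± 3.20 nt came from these 2 values. Over all 7958 genes tested the median difference was -2.22 nt and 11.5% were called, of which 899 were shorter and 14 longer. Of all genes, 913 were called in this tail comparison, but 462 without N2 replicate 3, 495 without gld-2 replicate 1, 510 without N2 replicate 1 and 519 without gld-2 replicate 2. skr-8, skr-9 and skr-14 could not be tested.

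In cpb-3, 0 of 7 members had a called tail difference (limma), 1 of them, skr-12, with an unadjusted p under 0.05. skr-12 tails were 58.2, 57.1 and 50.5 nt, all above N2, a difference of 5.66 ± 2.37 nt (limma, adjusted p = 0.474). skr-9 tails were 27.3, 23.6 and 13.2 nt, all below N2, a difference of -7.66 ± 3.80 nt (limma, adjusted p = 0.544). Of all 7991 genes, 0% were called, with 767 at an unadjusted p under 0.05.

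Under RNAi, 0 of the 5 members tested were called in any of the 5 groups (limma). Over all genes 0% were called for parn-1, 0% for caf-1, 0.632% for panl-2, 19.7% for ccf-1 and 0% for ccr-4, with 226 genes for parn-1, 261 for caf-1 and 479 for ccr-4 at an unadjusted p under 0.05. The 42 genes for panl-2 became 140 without control RNAi replicate 1, 1 without control RNAi replicate 2, and 4 and 2 without replicate 1 or 2 of the libraries labelled panl-2 RNAi, and 0 with a variance trend on mean length, an alternative chosen after seeing the data. ccf-1 encodes a CAF1-family subunit of the CCR4-NOT deadenylase. Under its RNAi all 5 estimates were positive, from 4.45 ± 2.41 nt for skr-1 to 8.92 ± 7.42 nt for skr-8, with a median of 5.13 nt beside 5.31 nt over all genes. skr-2 (30.3 and 32.4 nt against 27.4 and 25.1 in the control) and skr-12 (59.4 and 61.7 against 48.1 and 56.4) had an unadjusted p under 0.05 and were not called (limma, adjusted p = 0.112 and 0.116). skr-12 tails also stood above the control in the libraries labelled panl-2 RNAi, at 64.3 and 65.9 nt. They were at 67.8 and 60.1 nt under parn-1 RNAi and at 59.9 and 59.5 nt under ccr-4 RNAi. In this order the limma p was 0.0026, 0.00511 and 0.0566 unadjusted, and 0.112, 0.999 and 0.682 adjusted. The control value of 56.4 nt rested on 9 tailed reads.

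**Figure D5:**
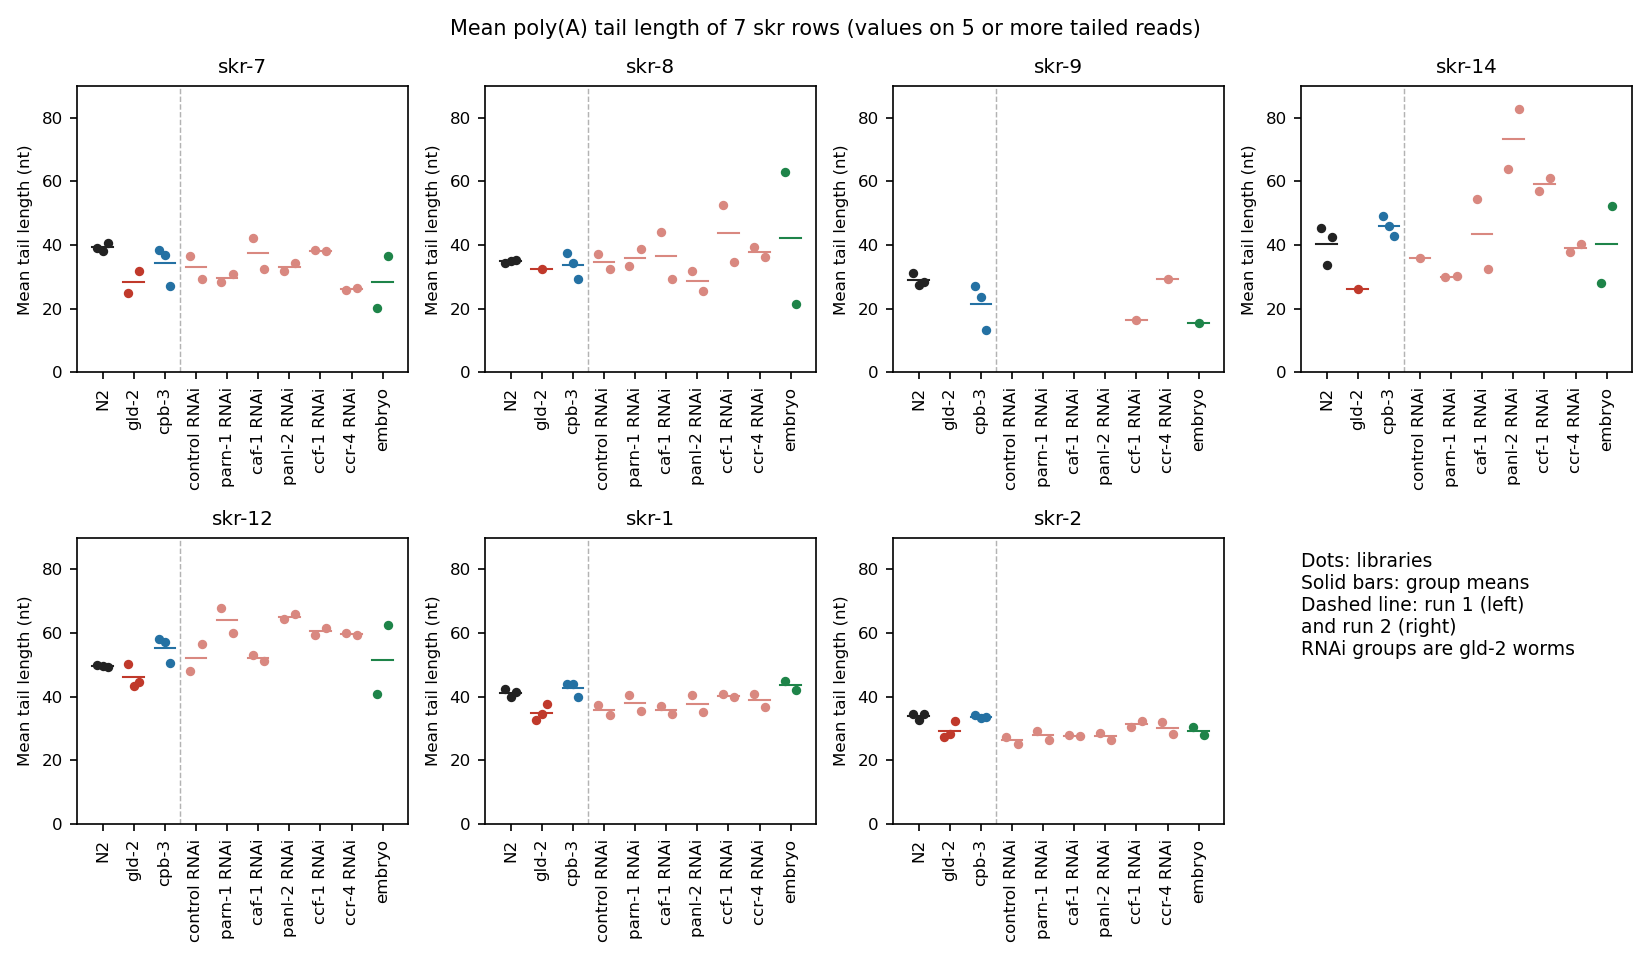
Mean poly(A) tail length in nt of the 7 skr rows in each library with at least 5 tailed reads for that row, with bars at group means. skr-1 tails sit above skr-2 tails in every group, and skr-8 and skr-14 scatter most in the run 2 groups, where as few as 5 reads make a value.

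No tail difference between embryos and N2 was called for a member (limma, 0 of 6 tested), and skr-2 and skr-7 had an unadjusted p under 0.05, beside 5.57% of 6442 genes called. skr-2 tails were 30.4 and 27.8 nt, both under N2, a difference of -4.83 ± 1.60 nt (limma, adjusted p = 0.121). skr-8 tails were 63.1 nt on 8 reads in replicate 1 and 21.6 nt on 25 reads in replicate 2. With embryo replicate 1 or 2 left out, 5 and 4 members were called, counts in which the lone embryo library is assumed to vary like N2. Against control RNAi, 0 of 5 members were called (limma), 1 of them, skr-1, with an unadjusted p under 0.05, beside 8.47% of 6065 genes, or 514, a count that was 87 without control RNAi replicate 2. skr-1 tails were 45 and 42 nt against 37.5 and 34.3 nt, a difference of 7.57 ± 2.41 nt (limma, adjusted p = 0.065).

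In gld-2, genes listed around the SCF complex were called for read level about as often as other genes, with both directions counted. More of those called fell than rose. This SCF list held 41 names: the other skr genes, cullins, RING subunits, F-box receptors, and the enzymes that charge ubiquitin or NEDD8 and cycle the cullin. It is wider than the SCF complex, since it holds other skr genes and cullins besides cul-1. Of these, 38 had a row and 35 were tested. In gld-2, 9 fell and 3 rose, beside 28.5% of all genes called (1548 lower and 1400 higher), and the median log2 difference was 0.01 beside 0.00 over all genes. cul-1, the cullin itself, had 75.6 ± 5.43 CPM (SD, n = 3) in N2 and 78.9 ± 11.7 in gld-2. Beyond skr-15, skr-16 and skr-21, those that fell did so by at most 1.18: the F-box genes prom-1 (-1.18 ± 0.23), dre-1 (-0.85 ± 0.22) and skpt-1 (-0.67 ± 0.22), the RING genes rbx-1 (-0.65 ± 0.16) and rbx-2 (-0.68 ± 0.18), and ubc-12 (-0.98 ± 0.19), which conjugates NEDD8. cand-1, a cullin exchange factor, and csn-1 and csn-3, of the COP9 signalosome that removes NEDD8, rose by 0.62 ± 0.16, 0.65 ± 0.16 and 0.63 ± 0.16. For tail length in gld-2, 8 of 34 tested genes of the list were shorter and 0 longer, with a median difference of -4.42 nt. Over all 7958 genes, 11.5% were called (899 shorter and 14 longer), with a median of -2.22 nt. The list was not tested as a set.

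In the other comparisons the genes of this list called for read level were all higher. In cpb-3 only ubc-12 was called, at 0.77 ± 0.19 (edgeR, adjusted p = 0.0188), beside 8.78% of 10357 genes. In embryos against N2, 12 of 35 rose and none fell, a median of 0.26 beside -0.11 over all genes, while 4 of the 7 members fell. Those that rose included skpt-1 (1.82 ± 0.17), csn-6 (1.27 ± 0.15), cand-1 (0.97 ± 0.13), rbx-2 (0.91 ± 0.16) and 3 other skr genes, skr-20 (2.01 ± 0.46), skr-15 (1.36 ± 0.21) and skr-4 (0.75 ± 0.24). The share called, 12 of 35, stood beside 34.4% of all genes. Adults of run 2 were also above N2 for several of these: csn-6 had 62.7 CPM in N2, 151 in embryos, 110 under control RNAi and 216 in the libraries labelled panl-2 RNAi, and cand-1 had 151, 295, 213 and 382 CPM. skr-20 had 1.84 CPM in N2, 7.49 in embryos and 7.23 under control RNAi, and skr-15 had 13, 33.2 and 26.2 CPM. Stage and run cannot be told apart here either. In embryos against control RNAi 11 of 35 rose and none fell, beside 22% of 9957 genes called (1051 higher and 1137 lower). Among those that rose were skr-21 (2.77 ± 0.59) and skr-19 (1.01 ± 0.32). Under ccf-1 RNAi, 19 of 34 tested genes of the list had longer tails and none shorter. Over all 6678 genes, 19.7% were called (1300 longer and 13 shorter). The median over the 34 was 9.84 nt beside 5.31 nt over all genes, with cul-4 at 18.26 ± 4.20 nt and fsn-1, an F-box gene, at 12.66 ± 2.38 nt. Of all genes, 1313 were called in this tail comparison, but 0 without ccf-1 RNAi replicate 2 and 31 without control RNAi replicate 2, and 13 with lengths centred on each library's median.

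Genes were ranked by how closely their group means, as log2(CPM + 1) over the 10 groups, followed those of the members. Among 3132 candidates, the mean of skr-7, skr-8, skr-9 and skr-14 was followed most closely by his-24 (r = 0.961) and hil-3 (0.951), both linker histone genes, cav-1 (0.952), a caveolin gene, vet-1 (0.947) and ent-5 (0.939), a nucleoside transporter gene. his-24 had 110 CPM in N2, 3.47 in gld-2, 109 in cpb-3, 9.33 under control RNAi and 32.4 in embryos. cav-1 had 240, 5.12, 239, 16.9 and 118 CPM in the same groups. In both genes embryos lay between N2 and control RNAi, as they did for skr-8. For skr-1 the closest were csn-3 (r = 0.886) and tpst-1 (0.865). Among members, skr-8 and skr-9 had r = 0.978 and skr-8 and skr-14 had 0.964, while skr-12 reached 0.707 at most, with skr-9. skr-2 ran against skr-12 at -0.808. The 10 points share libraries and depth between genes, and the gld-2 and N2 groups that chose the members are among them.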

How the data were processed

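The authors deposited tables of raw counts per gene and library, counts of reads with a poly(A) tail and a mean tail length in nt, which is treated as a score. Bowtie, Bowtie2 2.2.4 and the build ce10 are named in the submitters' processing notes; how reads were counted, strand use and how tails were measured are not stated there. Groups come from the labels, which do not say that replicates were separate cultures, so p-values measure only the spread between libraries. The members, lists and tests were chosen with earlier results of these data known.

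Read levels were tested with edgeR 4.0.16 (robust quasi-likelihood, TMM, filterByExpr) in R 4.3.3, with DESeq2 1.42.0 as an alternative. SE were taken from the same fit, and CPM use TMM-scaled library sizes over all 23 libraries. Limma 3.58.1 was used to test tail lengths (eBayes, robust, variance trend on tailed reads). Lengths resting on fewer than 5 tailed reads were missing, and genes needed a mean of 20 tailed reads over the fit and 2 values in each group compared. Run 1 shared 1 fit, the 12 RNAi libraries another, and embryos were fitted with N2 or with all of run 2. The Benjamini-Hochberg adjustment ran over all genes. Tailed shares were compared by an exact permutation test over libraries. Intervals are exact binomial at 95% and cover counting error only, since PCR duplicates cannot be told from molecules. All 9 members were to be described, and genes of the SCF list were named where called. The likeness rule took the 5 genes with the highest Pearson r among named genes with a mean of at least 5 CPM. The 64 rows with an accession but no symbol took 0.024 to 0.143% of counts and were kept. No sequences are printed, and identity between copies was not analysed here.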

Additional observations from a re-analysis of the deposited data

How the results depend on the processing

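Of 158 counts of called members under an alternative, 143 were within 1.5 times the reported count. Most of these were 0 beside a reported 0. Among the tested comparisons, only cpb-3 against N2 and embryo against N2, both for read level, had a reported count above 0. For cpb-3 against N2, read level, the count of 2 of 7 tested became 0 of 3 with assumed copies summed. These sums were skr-1 with skr-2, skr-7 with skr-8 and skr-9, and skr-12 with skr-14, without a check of identity. The count became 1 with tailed reads only, an alternative chosen after seeing the data, and ran from 0 to 2 with 1 library left out. For embryo against N2, copies summed gave 3 of 3 tested in place of 5 of 7, and tail calls were 4 and 5 in place of 0 without 1 embryo library. For the libraries labelled panl-2 RNAi the count of 0 became 1 with DESeq2, 1 with no filter on low counts and 0 to 1 with 1 library left out. For embryo against control RNAi, no filter gave 1 in place of 0.

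Replicate numbers were not taken as pairing, since the labels do not say what they mark and not every pair had r over 0.1: same-numbered libraries did so in 4 of 9 pairs in run 1 and 12 of 15 pairs of groups in run 2. All 5 pairs of control RNAi with an RNAi group had r from 0.136 to 0.284, a hint from the data, with 2 libraries each. With the replicate block, embryo against control RNAi gave 1 call for read level and 1 for tail length in place of 0, and skr-1 in cpb-3 went from 0.00 to -0.0163. In the tested comparisons the block changed no other member count by over 1.5 times. In gld-2 against N2, given as a description, 2 of 4 members were called for tail length and 1 with the block.

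Uncalled estimates near 0 changed sign. In cpb-3, skr-1 became -0.000702 with no filter and -0.169 to 0.10 with 1 library left out, and skr-14 became -0.109 with tailed reads only and -0.112 to 0.330 with 1 library left out. skr-8 became -0.141 with tailed reads only. In embryos, skr-1 ran from -0.0533 to 0.322 with 1 library left out. The causes were not tested. Over all genes, cpb-3 against N2 called 380 to 1335 in place of 909, embryo against N2 1541 to 4454 in place of 3215, and its tail fit 0 to 2395 in place of 359, the 0 with a variance trend on mean length, an alternative chosen after seeing the data. Depth limits skr-9 most, with 3 reads in gld-2 and 36 in embryos.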

Other observations

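In each of the 6 RNAi groups of run 2, the library numbered 2 had more skr-7 than the library numbered 1, by 2.19 to 3.61 times with a median of 2.54. The same held for skr-14 (1.25 to 8.67 times) and skr-8 (1.01 to 3.8 times) in 6 of 6 groups, and for skr-2 in 5 of 6 (median 1.13 times), but for skr-9 in 3 of 6, skr-12 in 1 of 6 and skr-1 in 4 of 6. The labels do not say what the number marks. It was chosen after the values were seen and was not tested.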
